A study of Mus musculus with 24 samples.

Results

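Cytosolic ribosomal protein genes were followed across liver tumours and non-tumour liver of B6C3F1 mice. A gene was a member when a probe set that the platform annotation assigned to it alone carried a symbol of the form Rpl or Rps followed by a digit, leaving out pseudogenes and the Rps6k kinases, and each gene was read from its probe set of highest mean intensity. The rule found 47 of the 18193 genes that were named by a single symbol. Of these, 22 were small-subunit and 24 were large-subunit genes, and Rps19bp1, which encodes a protein that binds RPS19, is not a ribosomal subunit. Symbols of 30 further ribosomal genes, Rpl5 among them, were found only on probe sets shared by several genes and were not members.

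The 24 arrays fell into 4 groups of 6. HB was hepatoblastoma, a liver tumour of embryonal type, HCC was hepatocellular carcinoma lying beside it, BDCA_Normal was non-tumour liver beside the tumours (called adjacent liver here, the first part of the name not being spelled out in the labels), and Vehicle_Normal was normal liver of vehicle control mice. The labelled background of all groups was a chronic bioassay in which male and female mice received 0, 200, 600 or 2000 mg/kg Ginkgo biloba extract by corn-oil gavage on 5 days a week for 2 years. Dose, sex and animal were not labelled per sample. Since nothing states that arrays of a group came from separate mice, p-values here cover the spread between arrays, which may be partly technical, and precision is limited by their number. HCC replicates 3 and 4 were near duplicates and were counted as 1 sample, so that HCC had n = 5 and each other group n = 6.

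Each cytosolic ribosome holds a small subunit, which decodes the mRNA, and a large subunit, which joins amino acids. Ribosomal proteins are made in near-equal amounts, are assembled onto ribosomal RNA in the nucleolus and are among the most abundant transcripts of any cell. Their mRNAs begin with a run of pyrimidines, the terminal oligopyrimidine (TOP) tract, through which the kinase mTOR governs their translation, and MYC is a well-known activator of ribosome production. Liver cells raise ribosome production when they enter growth, and a few members have a paralog whose expression is restricted to some tissues or states.

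The start sites of the genes whose change is described first are shown because the TOP tract begins there. Each window holds 60 bases before the RefSeq start and the first 20 bases from it (GRCm38.p6, coding strand, 5′ to 3′). Capitals mark runs of 6 or more C or T that lie within 15 bases of the start. RefSeq promoters were matched for 41 of the 47 members, with 49 start sites in all. The windows were chr9:120571457-120571536 for Rpl14 (plus strand), chr2:32961652-32961731 for Rpl12 (plus), chr9:44407654-44407733 for Rps25 (plus), chr16:10170168-10170247 for Rpl39l (plus), chr9:66946026-66946105 for the first of 2 listed starts of Rps27l (plus), chr3:90213629-90213708 for its paralog Rps27 (minus) and chr3:28805448-28805527 for Rpl22l1 (plus).
Rpl14: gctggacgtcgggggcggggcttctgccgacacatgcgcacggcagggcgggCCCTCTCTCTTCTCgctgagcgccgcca
Rpl12: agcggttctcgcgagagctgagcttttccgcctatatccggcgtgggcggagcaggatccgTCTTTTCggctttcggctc
Rps25: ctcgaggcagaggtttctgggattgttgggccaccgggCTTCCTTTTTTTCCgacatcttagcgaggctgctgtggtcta
Rpl39l: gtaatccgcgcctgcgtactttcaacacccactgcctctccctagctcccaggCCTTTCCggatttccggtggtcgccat
Rps27l: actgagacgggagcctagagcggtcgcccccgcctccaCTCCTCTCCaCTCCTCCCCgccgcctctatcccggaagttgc
Rps27: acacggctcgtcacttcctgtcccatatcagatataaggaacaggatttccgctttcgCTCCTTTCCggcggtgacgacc
Rpl22l1: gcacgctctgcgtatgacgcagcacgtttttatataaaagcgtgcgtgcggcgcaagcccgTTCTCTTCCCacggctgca

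All 7 printed windows held such a run, and the window of the second Rps27l start, which is not printed, held none. Runs by this looser rule were not counted over all promoters, and those of Rps25, Rpl39l and Rps27l ended before the start. By the stricter rule given next, only Rpl14, Rps27 and Rpl22l1 among the printed starts held a run. A run of at least 8 C or T between 10 bases before and 15 bases after the start was present in 32.7% of the 49 member promoters and in 9.49% of all 32851 promoters of the table. The ETS core CCGGAA, searched on both strands of the whole 300-base promoters, was present in 53.1% of member promoters and 14.9% of all. The Sp1 box GGGCGG was present in 51% and 35.7%, and the TATA box TATAAA in 10.2% and 13.6%. Among members with a matched promoter, CCGGAA was present in 12 of the 15 that were called higher in HB, in 5 of the 9 called lower and in 9 of the 15 not called. In the same order, the run of at least 8 C or T was present in 6, 5 and 5, the Sp1 box in 9, 5 and 8 and the TATA box in 2, 2 and 1. These are matches of letters, and no use of the sites was measured.

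The members ranged from bright to dim. Of the 45 tested members, 14 had a mean log2 level of 14 or more, 14 of 13 to 14, 8 of 10 to 13 and 9 under 10. Rpl14, Rpl12 and Rpl39l were among the 9 under 10. Together the tested members took 1.47% to 1.67% of the summed intensity of an array in HB, 1.44% to 1.94% in HCC, 1.39% to 1.63% in adjacent liver and 1.3% to 1.52% in vehicle control liver. The median member had a log2 level of 13.6 ± 0.083 in HB, 13.69 ± 0.21 in HCC, 13.52 ± 0.19 in adjacent liver and 13.38 ± 0.092 in vehicle control liver (mean ± SD, n = 6, 5, 6 and 6, log2 of intensity + 16). Rps29, a small-subunit protein, was the brightest member, with a mean intensity of 33960. The dimmest reading was that of Rps16, another small-subunit protein, at 0.779 to 28.7 over all arrays. It came from 1 probe set, and whether that probe set detects the transcript was not tested, so the gene cannot be called silent. Rpl3l, a paralog of Rpl3 known from muscle, was read at 2.91 to 22.9. Neither Rps16 nor Rpl3l passed the filter on low values. The other 45 members were tested. In tissue samples of this kind, fewer cells of a type and less RNA per cell cannot be told apart.

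In hepatoblastoma, members were called in both directions, at shares close to those over all genes. In HB against vehicle control liver, 17 of the 45 tested members rose, 11 fell and 17 did not pass the test (limma, adjusted p under 0.05), while over all 14086 tested genes 60.5% were called, 37.4% higher and 23.1% lower. The median difference of the members was -0.01 on the log2 scale and that of all genes 0.34. Of the 23 tested large-subunit members, 10 rose and 3 fell, and of the 21 small-subunit members 7 rose and 8 fell. The 10 included Rpl37 and Rpl39l, which passed the filter on low values only through their HB arrays. The intensities of HB lay above those of every vehicle control array for 9 members and below them for 4, against 21.8% and 16.2% of all genes.

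**Figure D1:**
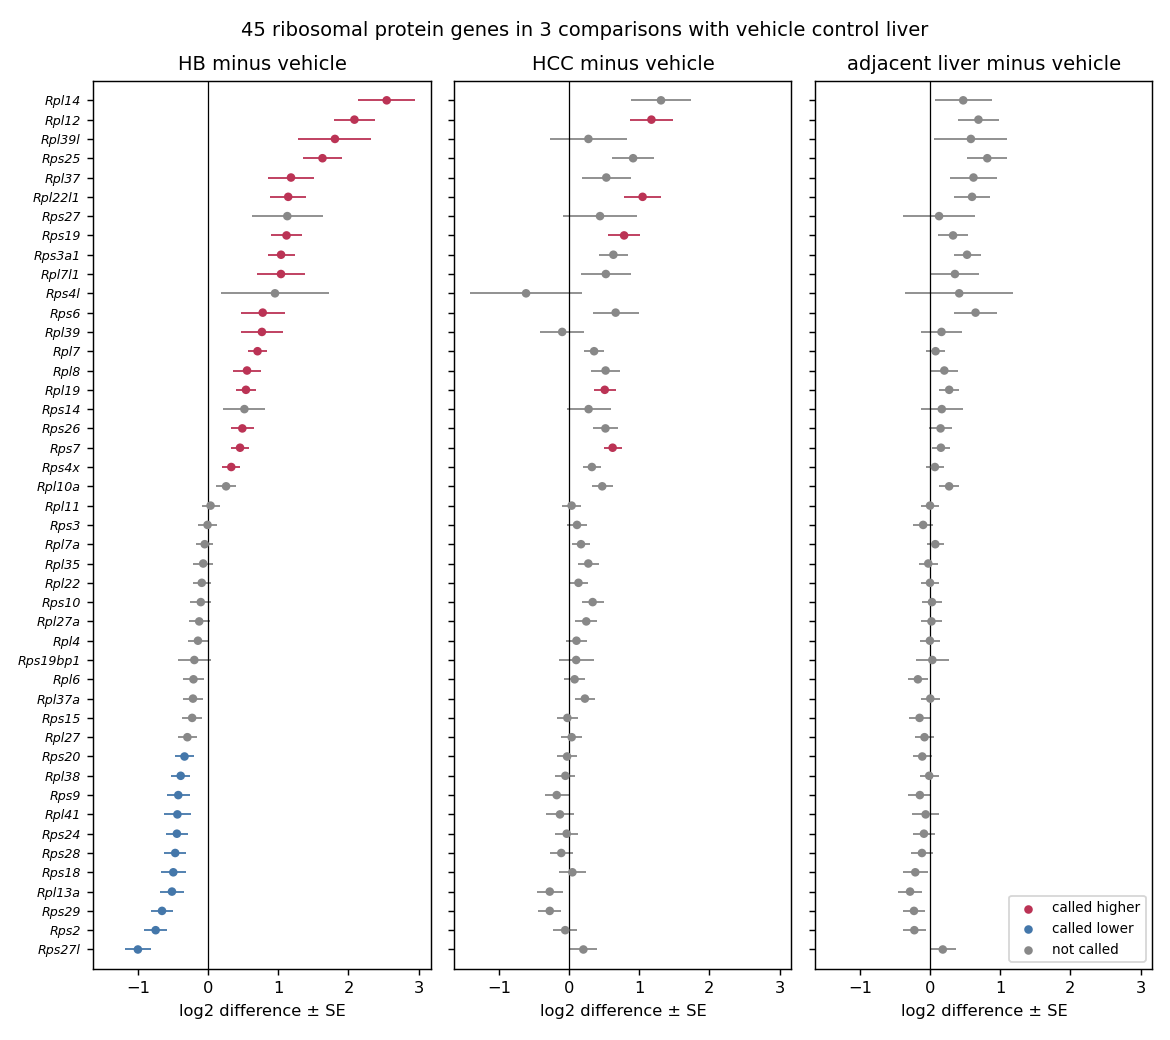
Log2 difference from vehicle control liver with its standard error for the 45 tested ribosomal protein genes (rows, ordered by their difference in HB), in HB, HCC and adjacent liver (panels); red, called higher, blue, called lower, grey, not called. In HB 17 members rose and 11 fell, in HCC 5 rose and none fell, and in adjacent liver none was called.

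The direction of the family depended on how the arrays were scaled. The authors had scaled each array to a trimmed mean intensity of 500, and the median intensity per array was 165 ± 20.8 in HB and 92.5 ± 12.7 in vehicle control liver (mean ± SD, n = 6). After quantile normalization, 35 members were called higher and 2 lower in HB, with a median of 0.63, where 28.2% and 29% of all genes were called and the median of all genes was -0.004. After each array was centred on its median, 4 were called higher and 24 lower, with a median of -0.63, where 20% and 36.3% of all genes were called and their median was -0.28. Of the 11 members called lower on the deposited scale, 8 were called higher after quantile normalization. Only Rpl12, Rpl14, Rpl39l and Rps25 were called higher, and only Rps27l lower, under all 3 scalings. Each of these 4 rises was read from 1 probe set. Whether these probe sets detect the main transcript of each gene was not tested, a limit described below. All vehicle control values of Rpl39l lay under the filter value for low intensities, 66.3. Rpl39l passed that filter only through its HB arrays, so its call is not separate support for a rise.

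**Figure D2:**
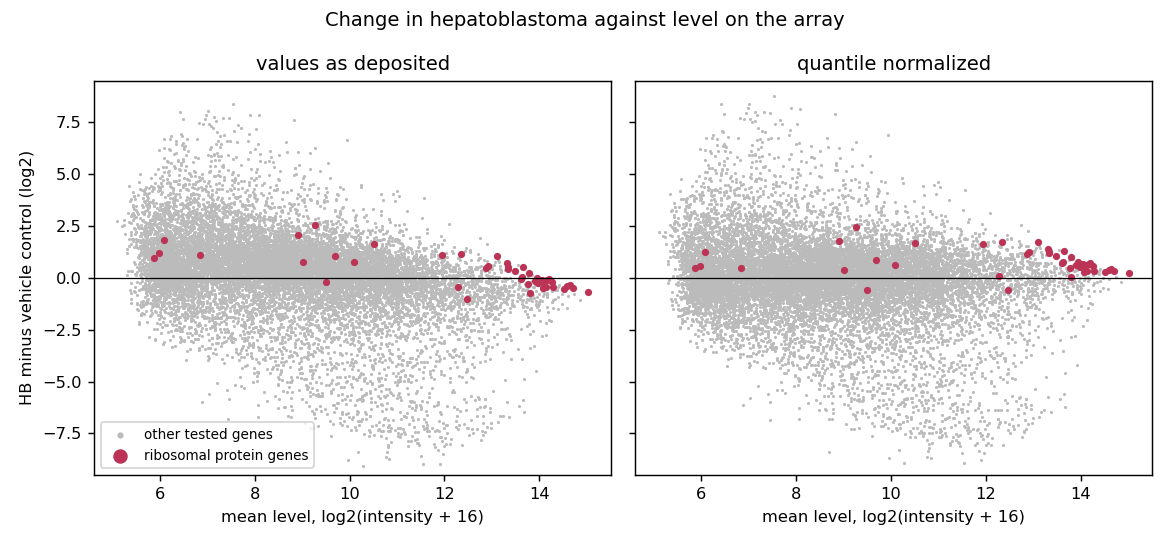
Difference between HB and vehicle control liver (vertical axis, log2) against the mean level of each tested gene (horizontal axis, log2 of intensity + 16), for values as deposited (left) and quantile normalized (right); red points are ribosomal protein genes and grey points the other tested genes. Among genes with a level of 14 or more, the members had a median of -0.37 and the others -0.94 as deposited, and 0.42 and -0.14 after quantile normalization.

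Level on the array and direction were linked across members, and the same link was present in other genes. Among the 14 members with a mean log2 level of 14 or more, 0 rose and 8 fell in HB, with a median of -0.37, and 38 of the 39 other genes as bright as these fell, with a median of -0.94. Between levels of 13 and 14, the 14 members had a median of 0.14 and the 219 other genes -0.9. Between 10 and 13, the 8 members had a median of 0.67 and the 3463 others -0.29, and below 10 the 9 members had 1.13 and the 10320 others 0.58. In each of these 4 classes the median of the members lay above that of the other genes, both on the deposited scale and after quantile normalization or median centring.

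Among the large-subunit genes, Rpl14 had the highest difference. Its intensity was 786 to 2901 in HB (median 1701), 333 to 1427 in HCC (848), 186 to 748 in adjacent liver (347) and 82.9 to 514 in vehicle control liver (320.5). All 6 HB arrays lay above all 12 non-tumour arrays, while the HCC range overlapped both. The log2 difference between HB and vehicle control liver was 2.55 ± 0.41 (SE, limma adjusted p = 7.38e-06), a 5.84-fold difference. HB exceeded HCC by 1.24 ± 0.43 (limma adjusted p = 0.0179) and adjacent liver by 2.07 ± 0.41 (limma adjusted p = 0.000112), but after median centring the difference from HCC was 0.72 with an adjusted p of 0.214.

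Rpl12, whose protein lies at the base of the stalk that recruits elongation factors, was at 586 to 1663 in HB (median 1032), 410 to 670.1 in HCC (542), 243 to 509 in adjacent liver (422) and 134 to 348 in vehicle control liver (245). The arrays of both tumours lay above every vehicle control array. The log2 difference from vehicle control liver was 2.09 ± 0.29 in HB (limma adjusted p = 9.54e-07) and 1.17 ± 0.3 in HCC (limma adjusted p = 0.0182). The HCC call was lost after quantile normalization (1.03, adjusted p = 0.0596) and without the arrays with Xist signal described below (1.21, adjusted p = 0.182). HB exceeded HCC by 0.91 ± 0.3 (limma adjusted p = 0.0143), a call that was lost after quantile normalization (adjusted p = 0.0589) and after median centring (adjusted p = 0.308).

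Rpl7, a large-subunit protein that contacts 28S rRNA, was a bright member with a separate HB group. It was at 12459 to 14567 in HB (median 13856), 9191 to 11532 in HCC (11305), 7595 to 10566 in adjacent liver (8932) and 6266 to 9927 in vehicle control liver (8468). No HB array overlapped any other group. The log2 difference was 0.7 ± 0.13 from vehicle control liver (limma adjusted p = 7.49e-05), 0.63 ± 0.13 from adjacent liver (limma adjusted p = 0.000307) and 0.35 ± 0.14 from HCC (limma adjusted p = 0.0414). With each array centred on its median, these differences were 0.08, 0.09 and -0.17 with adjusted p of 0.711, 0.7 and 0.448. The call against HCC was lost in 7 of the 12 fits that left out 1 replicate (limma adjusted p up to 0.11).

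Among the small-subunit genes, Rps25, known for its part in initiation at internal ribosome entry sites, was at 2129 to 2835 in HB (median 2545), 727 to 2126 in HCC (1719), 860 to 2814 in adjacent liver (1474) and 474 to 1256 in vehicle control liver (803). The HB arrays lay above all HCC samples and all vehicle control arrays, and 1 adjacent-liver array reached the HB range. The log2 difference from vehicle control liver was 1.63 ± 0.28 (limma adjusted p = 2.21e-05). HB exceeded HCC by 0.72 ± 0.3 (limma adjusted p = 0.0452), which after median centring was 0.2 with an adjusted p of 0.636. This call was lost in 7 of the 12 fits that left out 1 replicate (limma adjusted p up to 0.184).

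Rps19, the small-subunit protein mutated in Diamond-Blackfan anaemia, was at 3319 to 7578 in HB (median 6282), 3946 to 5580 in HCC (4423), 2327 to 6042 in adjacent liver (3245) and 2072 to 3172 in vehicle control liver (2818). Both tumour groups lay above all vehicle control arrays. The log2 difference from vehicle control liver was 1.12 ± 0.22 in HB (limma adjusted p = 8.87e-05) and 0.78 ± 0.23 in HCC (limma adjusted p = 0.0347). After median centring neither passed, with adjusted p of 0.0691 and 0.089, and the HCC call was also lost after quantile normalization (adjusted p = 0.0558). Its partner Rps19bp1 differed by -0.2 ± 0.24 in HB and did not pass (limma adjusted p = 0.485). After quantile normalization Rps19bp1 was called lower, by -0.59, and after median centring also, by -0.82.

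Rps3a1, a small-subunit protein, was at 10376 to 15386 in HB (median 12171), 6830 to 11493 in HCC (10025), 6198 to 14896 in adjacent liver (7616) and 5072 to 7202 in vehicle control liver (5999.6). The HB arrays lay above every vehicle control array and overlapped the other groups. The log2 difference from vehicle control liver was 1.04 ± 0.19 (limma adjusted p = 5.36e-05), and 0.42 with an adjusted p of 0.0888 after median centring.

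Other members were also called higher in HB. Rps6, the substrate of the S6 kinases, was at 701 to 2065 in HB and 340 to 1145 in vehicle control liver, a log2 difference of 0.78 ± 0.31 (limma adjusted p = 0.0337). Its call was lost in 4 of the 12 fits that left out 1 replicate (limma adjusted p up to 0.113). Rpl19 differed by 0.54 ± 0.15 (limma adjusted p = 0.00277) and Rps7 by 0.45 ± 0.12 (limma adjusted p = 0.00261), both with separate groups, and both turned to -0.08 and -0.17 after median centring, where neither was called. The remaining higher calls were Rpl37, Rpl8, Rps26 and Rps4x, with log2 differences from 0.33 to 1.18 and overlapping arrays, and the paralogs and Rpl39 described below. No vehicle control array of Rpl37 exceeded the filter value, and 4 HB arrays did. Rpl37 passed the filter only through these HB arrays, so its call does not stand apart from the filter. With the control arrays raised to the filter value, the mean log2 level of Rpl37 was higher in HB by 1.16-fold, a difference that was not tested. Rpl11, which with RPL5 and 5S rRNA forms the particle that restrains MDM2, was at 11318 to 13747 in HB and 10399 to 14798 in vehicle control liver and differed by 0.03 ± 0.13 (limma adjusted p = 0.839).

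**Figure D3:**
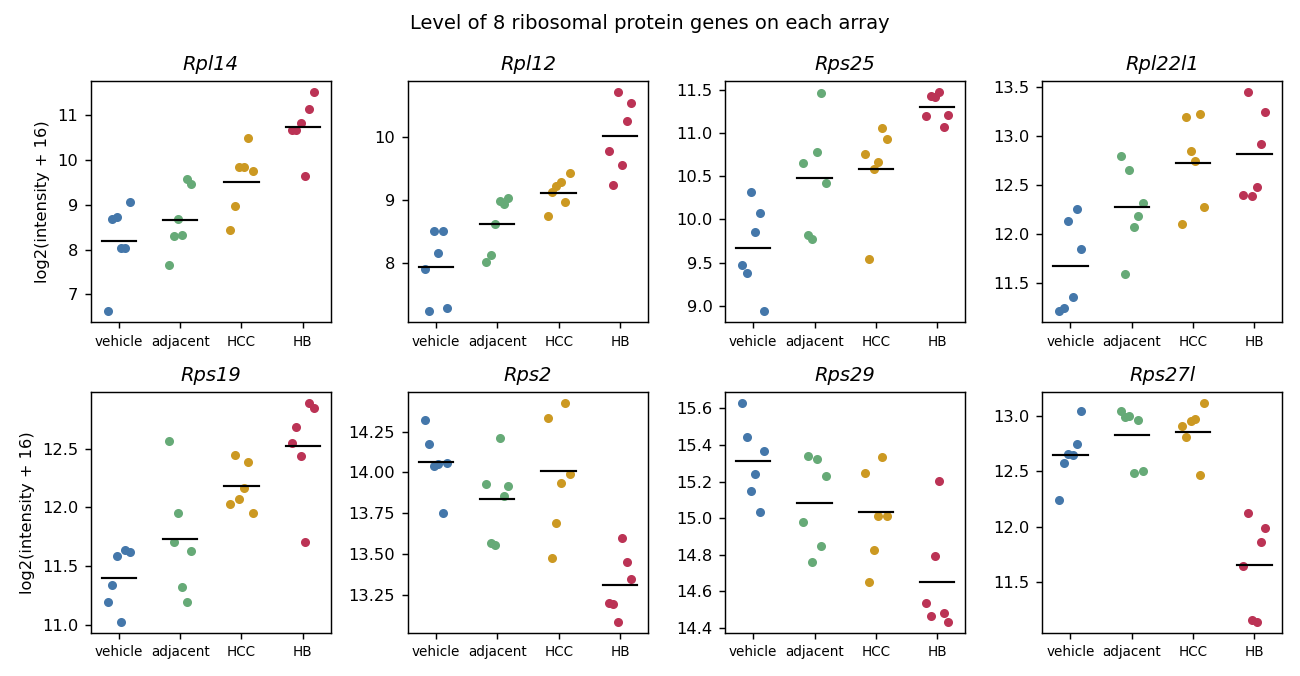
Level of 8 ribosomal protein genes (log2 of intensity + 16) on each array, by group; points are arrays, with HCC replicates 3 and 4 drawn separately, and lines are group means, with HCC replicates 3 and 4 counted as 1 sample. Rpl14, Rpl12, Rps25, Rpl22l1 and Rps19 were higher in HB than in vehicle control liver, and Rps2, Rps29 and Rps27l lower, of which Rps27l alone was also called lower after quantile normalization.

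The largest fall was that of Rps27l, a paralog of Rps27 described as a p53 target. It was at 2233 to 4437 in HB (median 3442), 5651 to 8911 in HCC (7686), 5728 to 8471 in adjacent liver (8064) and 4817 to 8438 in vehicle control liver (6437). The 6 HB arrays lay below all arrays of the other 3 groups, which overlapped one another. HB was lower by a log2 difference of -1 ± 0.19 against vehicle control liver (2-fold, limma adjusted p = 5.36e-05), -1.18 ± 0.19 against adjacent liver and -1.21 ± 0.2 against HCC. All 3 probe sets of the gene were called lower, with differences from vehicle control liver of -1, -0.85 and -0.79, and the call in each of these 3 comparisons was kept under all 3 scalings. Quantile normalization with the brightest probe set that had no _x_ or _s_ suffix, an alternative chosen after seeing the data, gave -0.39 against vehicle control liver with an adjusted p of 0.0605.

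The other falls were smaller, from -0.75 to -0.34, and all but that of Rpl41 belonged to members brighter than Rps27l. Rps2, a small-subunit protein near the mRNA entry, was at 8689 to 12398 in HB (median 9918) and 13764 to 20463 in vehicle control liver (16981), without overlap. Its log2 difference was -0.75 ± 0.16 from vehicle control liver (limma adjusted p = 0.000279) and -0.69 ± 0.17 from HCC (limma adjusted p = 0.00132). After quantile normalization these were 0.02 and -0.06, with adjusted p of 0.885 and 0.674. Rps29, at 22119 to 37681 in HB and 33581 to 50724 in vehicle control liver, differed by -0.66 ± 0.16 (limma adjusted p = 0.000894), and was called higher by 0.23 after quantile normalization (adjusted p = 0.00507).

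Rps24 and Rps9, small-subunit proteins whose HB arrays also lay below those of vehicle control liver, differed by -0.45 ± 0.15 and -0.43 ± 0.16 (limma adjusted p = 0.014 and 0.0266). After quantile normalization both were called higher, by 0.34 and 0.33. Rps18, Rps20, Rps28, Rpl13a, Rpl38 and Rpl41 made up the rest of the lower calls, with log2 differences from -0.52 to -0.34. In HB against HCC, Rps18, Rpl37a, Rps10 and Rps24 were called lower by -0.54 to -0.41, and after quantile normalization none of them passed.

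Probe sets of the same gene did not always move together. Of the 23 members with several kept probe sets, 16 had probe sets that differed in sign between HB and vehicle control liver, and 6 (Rpl13a, Rpl41, Rps18, Rps20, Rps24 and Rps9) had probe sets called in both directions. The dimmest probe set lay above the brightest in 20 of the 23 genes, with medians of 0.91 and -0.22. Rps24 had 6 kept probe sets, of which the brightest, at a mean log2 level of 14.3, differed by -0.45 and a dim one, at 8.33, by 2.67. Among the 97 kept probe sets, the 28 with the plain suffix _at had a median of 1.04, with 18 higher and 0 lower calls, and the 39 with the suffix _x_at, which marks probes that can match other transcripts, had a median of -0.12, with 6 higher and 15 lower. Over all 32702 kept probe sets 42.2% were called higher and 17.3% lower.

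**Figure D4:**
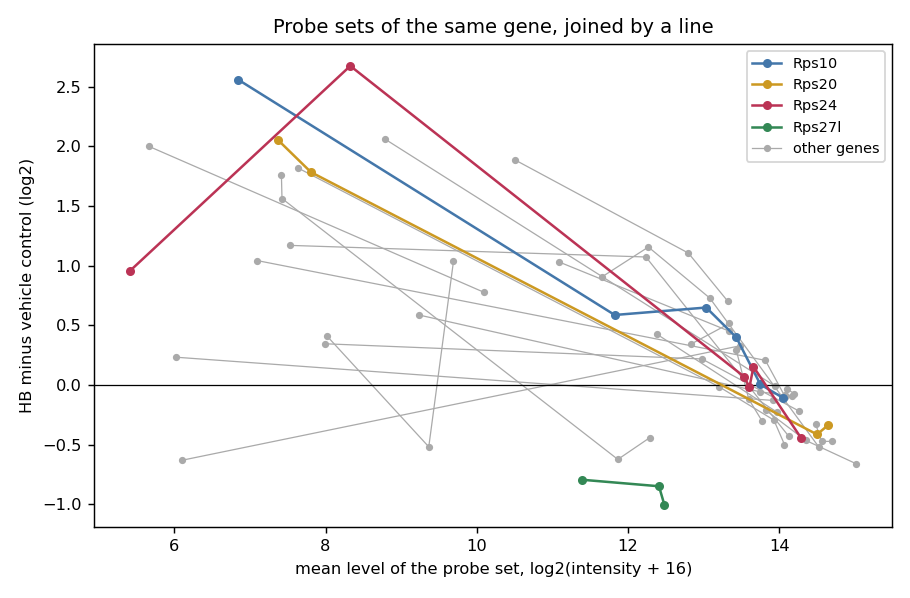
Difference between HB and vehicle control liver (log2) against the mean level of each probe set (log2 of intensity + 16), for the 23 ribosomal protein genes with several kept probe sets; lines join the probe sets of a gene. In 20 of the 23 genes the dimmest probe set lay above the brightest, while the 3 probe sets of Rps27l all lay below 0.

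Rpl14, Rpl12, Rps25 and Rpl39l were each read from 1 probe set with the suffix _at, so no other probe set of theirs stood beside these values. Their mean log2 levels were 9.29, 8.92, 10.51 and 6.07, in that order. Dim probe sets lay above bright ones in 20 of the 23 genes described above. Whether the probe sets of Rpl14, Rpl12, Rps25 and Rpl39l detect the main transcript was not tested. Nor was it tested whether their rises belong to this pattern of dim probe sets. The 105 kept probe sets that several genes shared and that carried a ribosomal symbol had a median difference of 0.12 in HB, with 43 called higher and 14 lower.

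Paralogs were compared with their parent genes within each array, a difference that scaling by a constant leaves nearly unchanged. The link between level and direction described above was not removed from it, and the genes of a pair differed in level. Rpl22 had a mean log2 level of 14.18 and Rpl22l1 12.37, and Rps27l had 12.5 and Rps27 6.84. Rpl22l1, the paralog of Rpl22, was at 5319.98 to 11158 in HB (median 6726), 4390.5 to 9546 in HCC (7086), 3071 to 7109.6 in adjacent liver (4858) and 2354 to 4852 in vehicle control liver (3134). It was higher than in vehicle control liver by 1.14 ± 0.26 in HB (limma adjusted p = 0.000443) and by 1.05 ± 0.27 in HCC (limma adjusted p = 0.0172), calls that were lost after median centring (adjusted p = 0.137 and 0.0659). Rpl22 itself differed by -0.09 ± 0.13 and 0.13 ± 0.13 and did not pass (limma adjusted p = 0.551 and 0.618).

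The log2 level of Rpl22l1 minus that of Rpl22 was -1.26 ± 0.45 in HB, -1.58 ± 0.52 in HCC, -1.9 ± 0.31 in adjacent liver and -2.5 ± 0.58 in vehicle control liver (mean ± SD, n = 6, 5, 6 and 6). The pair thus moved by 1.23 between HB and vehicle control liver (two-sided exact permutation test, p = 0.00433, adjusted p = 0.0519 over 24 tests of 4 pairs). Rps27l minus Rps27 moved by -2.13 in the same comparison and by -2.18 against adjacent liver, each with an adjusted p of 0.0519 by the exact test. None of the 24 tests passed after adjustment, and the smallest p that the design allowed was 0.00216. Without HB replicate 1, or without BDCA_Normal replicate 1, 4 of the 24 passed, and with a pseudocount of 64 it was 5. Rps27 was read from a single dim probe set, at 49.6 to 329 in HB and 28.9 to 226 in vehicle control liver, with a log2 difference of 1.13 ± 0.51 (limma adjusted p = 0.0582).

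Rpl39l, a paralog of Rpl39 known from the testis, was dim and variable, at 38.8 to 493 in HB (median 103), 7.09 to 147 in HCC (31.3), 13.6 to 87 in adjacent liver (56.7) and 4.64 to 57.6 in vehicle control liver (32.9). All groups overlapped. The filter value of 66.3 was exceeded on 4 arrays in HB, 1 in HCC, 2 in adjacent liver and 0 in vehicle control liver. A gene was tested only if at least 6 arrays exceeded that value. Rpl39l reached this only with its HB arrays, so its selection favoured a rise in HB. The fitted log2 difference was 1.81 ± 0.52 from vehicle control liver (limma adjusted p = 0.00427), a size that rests on control values under the filter value. With the control arrays raised to that value, the mean log2 level of Rpl39l was higher in HB by 1.8-fold, a difference that was not tested. The fitted difference from HCC, 1.53 ± 0.55 (limma adjusted p = 0.0215), was not called after quantile normalization or median centring (adjusted p = 0.0682 and 0.103). Rpl39, at 395 to 1081 in HB and 251 to 743 in vehicle control liver, differed by 0.77 ± 0.3 (limma adjusted p = 0.0295) and, after quantile normalization, by 0.39 with an adjusted p of 0.281. The difference between the paralogs, Rpl39l minus Rpl39, moved by 1.04 (exact permutation test, adjusted p = 0.331).

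Rpl7l1, a paralog of Rpl7 that takes part in making the large subunit, rose by 1.04 ± 0.34 in HB (limma adjusted p = 0.0112), with a range of 608 to 2722 against 482 to 839, and after quantile normalization had an adjusted p of 0.0515. Rps4l was at 1.93 to 620.4 in HB and 1.68 to 125 in vehicle control liver, a log2 difference of 0.95 ± 0.77 (limma adjusted p = 0.29).

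In hepatocellular carcinoma, 5 of the 45 members rose against vehicle control liver and 0 fell, where 7.32% of all genes were called, 4.44% higher and 2.88% lower. The 5 were Rpl12, Rpl22l1 and Rps19, described above, with Rps7 and Rpl19. Rps7, a small-subunit protein that can also bind MDM2, was at 11524 to 15405 in HCC (median 12614) and 6870.3 to 9243 in vehicle control liver (8752), without overlap, a log2 difference of 0.62 ± 0.13 (limma adjusted p = 0.00397). Rpl19 differed by 0.51 ± 0.15 (limma adjusted p = 0.0438), a call that was lost in 9 of the 12 fits that left out 1 replicate, with adjusted p from 0.0252 to 0.11, and with no filter on low values, no variance trend, the mean of probe sets, the 2 groups compared alone and the replicate block (adjusted p = 0.0664, 0.0934, 0.0584, 0.0679 and 0.0826). The HCC call of Rps19 was lost in 5 of the 12 fits that left out 1 replicate, those without HCC replicate 2 or 5 or Vehicle_Normal replicate 1, 2 or 4 (adjusted p up to 0.0799). That of Rpl22l1 was lost without HCC replicate 2 or 5 (up to 0.0567) and that of Rpl12 without Vehicle_Normal replicate 2 (0.0505), while that of Rps7 was kept in all 12. The median of the members was 0.22 and of all genes 0.08, 33 of the 45 differences lay above 0, and the arrays of 3 members, Rpl12, Rps19 and Rps7, lay above every vehicle control array, against 2.72% of all genes. The count of rises was 10 after quantile normalization (3% of all genes) and 1, Rpl12, after median centring (2.79%), and 0 members were called under all 3 scalings. Rpl14, at 1.31 ± 0.43, did not pass (limma adjusted p = 0.0601). The count was 2 without HCC replicate 5, 8 without HCC replicate 6 and 3 without Vehicle_Normal replicate 1, 2 or 4.

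Between the tumours, 12 of the 45 members were called, 6 higher and 6 lower in HB than in HCC, where 50.9% of all genes were called, 29.2% higher and 21.7% lower. Those higher were Rpl14, Rpl12, Rpl39l, Rpl39, Rps25 and Rpl7, and those lower Rps27l, Rps2, Rps18, Rpl37a, Rps10 and Rps24. The median of the members was -0.2 and that of all genes 0.19. After quantile normalization 24 were higher and 2 lower (23.8% and 26.9% of all genes), after median centring 0 higher and 29 lower (16.1% and 34.3%), and Rps27l was the only member called in the same direction under all 3 scalings. Without HCC replicate 5 the count of called members was 7. In the 12 fits that left out 1 replicate, the calls of Rps25 and Rpl7 were lost in 7 each, Rps24 in 5 and Rpl39l in 4. That of Rpl39 was lost in 3, Rps18 in 2, and Rpl14, Rpl37a and Rps10 in 1 each. The calls of Rpl12, Rps2 and Rps27l were kept in all 12.

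In adjacent liver against vehicle control liver no member passed in limma, where 0.0994% of all genes were called. At an unadjusted p under 0.05 there were 5 of the 45, and 10.3% of all genes. The 5 were Rps25, Rps3a1, Rpl12, Rpl22l1 and Rps6, all with positive differences, of 0.53 to 0.81. In HCC against adjacent liver no member passed in limma, where 1.83% of all genes were called, and 2 of the 45 had an unadjusted p under 0.05, as did 13.4% of all genes. In HB against adjacent liver 8 rose and 5 fell, where 56.8% of all genes were called, 34.3% higher and 22.4% lower. After quantile normalization 33 were higher and 2 lower (27.5% and 28.2% of all genes), and after median centring 2 higher and 25 lower (19.5% and 35%). Rpl14, Rpl12 and Rps27l were called in the same direction there under all 3 scalings, and the count of called members was 8 without HB replicate 5 and 8 without HB replicate 6.

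Several measures moved with the groups. Arrays with Xist intensity over 1000, a transcript of the inactive X chromosome, numbered 4 of 6 in vehicle control liver, 1 of 6 in adjacent liver and 0 in either tumour. Without those arrays, 11 members were called in HB against vehicle control liver (8 higher and 3 lower) and 0 in HCC, with vehicle control liver down to 2 arrays. Of the 48 calls of named members over the comparisons, 21 were lost without them, among them Rpl22l1 and Rpl39l in HB against vehicle control liver (limma adjusted p = 0.0677 and 0.121), whose differences were then 0.83 and 1.44 against 1.14 and 1.81 with all arrays, while Rpl14, Rpl12, Rps25 and Rps27l kept theirs in that comparison. The summed intensity of 7 hepatocyte markers was 389 to 68070 in HB, with 2 of the 7 below the filter value by their median, and 185025 to 276594 in vehicle control liver, and all 7 fell in HB. The 7 tested proliferation markers all rose in HB, with sums of 1752 to 12107 against 466 to 1586, and the 8 macrophage markers all fell, with sums of 723 to 1857 against 8711 to 35647. Of the 6 endothelial markers 5 fell in HB, with sums of 456 to 3086 against 8984 to 11668. All 4 biliary markers rose, with sums of 1030.5 to 3883 against 105 to 564. Of the 7 tested lymphocyte markers 4 fell and 1 rose, of the 8 stellate and fibroblast markers 4 fell, and of the 2 tested erythroid markers 1 rose and 1 fell. In HCC against vehicle control liver, 2 proliferation markers rose, 2 lymphocyte markers and 1 each of the macrophage, endothelial and stellate lists fell, and 0 hepatocyte, biliary and erythroid markers passed (limma). The 3′ to 5′ difference of the Gapdh control probe sets was 1.37 ± 0.23 in HB and 1.92 ± 0.19 in vehicle control liver (log2, mean ± SD), and that of Actb was 0.25 ± 0.1 in HB, 0.52 ± 0.32 in HCC and 0.14 ± 0.1 in vehicle control liver. Without HB replicates 4 and 5, 16 members were called higher and 11 lower. The part of sex, cell content and RNA quality in the results above was not tested.

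Genes that build ribosomes were set beside the members. In HB against vehicle control liver 37.4% of all genes were called higher and 23.1% lower as deposited. The shares were 28.2% and 29% after quantile normalization and 20% and 36.3% after median centring. The counts of each list stand against these shares, which cover genes of every level, and no list was matched for level. Of 28 tested ribosome assembly factors, 17 rose and 1 fell in that comparison, with a median of 0.78. After quantile normalization 14 were higher and 2 lower, with a median of 0.65, and after median centring 7 were higher and 5 lower, with a median of 0.16. Nop56 and Nop58, core proteins of the box C/D particles that guide methylation of ribosomal RNA, rose by 2.27 ± 0.23 and 1.56 ± 0.19 (limma adjusted p = 7.07e-09 and 1.22e-07). Gar1, of the particles that guide pseudouridylation, rose by 2.07 ± 0.36, and nucleolin, Ncl, by 1.44 ± 0.24. In HCC 4 of the 28 rose, Nop58, Nop56, Nop2 and Nhp2, by 0.87 to 1.16, and 0 fell, where 4.44% of all genes were called higher and 2.88% lower.

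Of 14 RNA polymerase I genes, which transcribe ribosomal RNA, 11 rose and 0 fell in HB, with a median of 1.03, where 37.4% of all genes rose and 23.1% fell. Rrn3, the initiation factor that growth signals act on, rose by 2.05 ± 0.3 and Ubtf, which holds ribosomal DNA open, by 1.37 ± 0.22. After quantile normalization 8 of the 14 were higher and 0 lower, and after median centring 5 were higher and 1 lower. Of 11 genes of signalling to the ribosome, 6 rose and 0 fell as deposited, and Myc, the transcription factor, rose by 2.52 ± 0.32 in HB (limma adjusted p = 2.27e-07) and by 1.51 ± 0.33 in HCC (limma adjusted p = 0.0066). After quantile normalization 4 of the 11 were higher and 2 lower, and after median centring 1 was higher and 4 lower.

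Of 24 translation initiation genes, 8 rose and 4 fell in HB, shares near those of all genes (37.4% and 23.1%). The direction of the list depended on the scaling, with 17 higher and 2 lower after quantile normalization (median 0.58) and 1 higher and 10 lower after median centring (median -0.35). The largest falls were those of Eif4ebp1 and Eif4ebp2, repressors of cap-dependent initiation that mTOR inactivates, by -3.04 ± 0.24 and -2 ± 0.21 (limma adjusted p = 4.61e-11 and 1.18e-08). Eif3k and Eif4a2 rose by 1.45 ± 0.26 and 0.88 ± 0.19. Of 10 elongation and other TOP genes, 4 rose and 3 fell, with Hnrnpa1, Pabpc1 and Vim among the former, at 1.51, 0.86 and 1.92, and Tpt1 among the latter, at -0.62, which turned to 0.17 after quantile normalization. This list too turned with the scaling, with 9 higher and 0 lower after quantile normalization and 2 higher and 6 lower after median centring. Of the ribosomal proteins whose symbols the rule misses, 4 were tested, and Rplp0, the stalk protein, rose by 0.76 ± 0.22 in HB and 0.77 ± 0.23 in HCC (limma adjusted p = 0.0037 and 0.0377), while Rpsa, Rplp2 and Fau, at -0.33, 0.13 and -0.01, did not pass in HB. All 4 were called higher in HB after quantile normalization, and 0 higher and 3 lower after median centring, where Rplp0 thus lost its rise.

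Mitochondrial ribosomal protein genes went the other way from the assembly factors. Of 76 tested, 0 rose and 34 fell in HB against vehicle control liver, with a median of -0.45, where 37.4% of all genes rose and 23.1% fell. After quantile normalization 44 of the 76 fell and 0 rose (29% of all genes fell). After median centring 62 fell and 0 rose (36.3%), so this direction was shared by the 3 scalings. The list was not matched for level. Among genes other than the members, 42.7% fell and 23.4% rose at levels of 10 to 13 as deposited, and 15.1% fell and 43% rose below 10. At levels of 10 to 13, 40.1% of those genes fell after quantile normalization and 61% after median centring, and below 10, 25% and 26.5%. Mrpl19 fell by 4.15 ± 0.25 on the log2 scale, Mrps24 by 1.67 ± 0.21, Mrpl51 by 0.9 ± 0.15 and Mrpl38 by 1.29 ± 0.22 (limma adjusted p = 2.56e-13, 2.86e-07, 1.43e-05 and 1.7e-05). Against HCC 25 of the 76 were lower and 2 higher in HB (21.7% and 29.2% of all genes), and between HCC and vehicle control liver 1 was higher and 2 lower, with a median of -0.04.

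**Figure D5:**
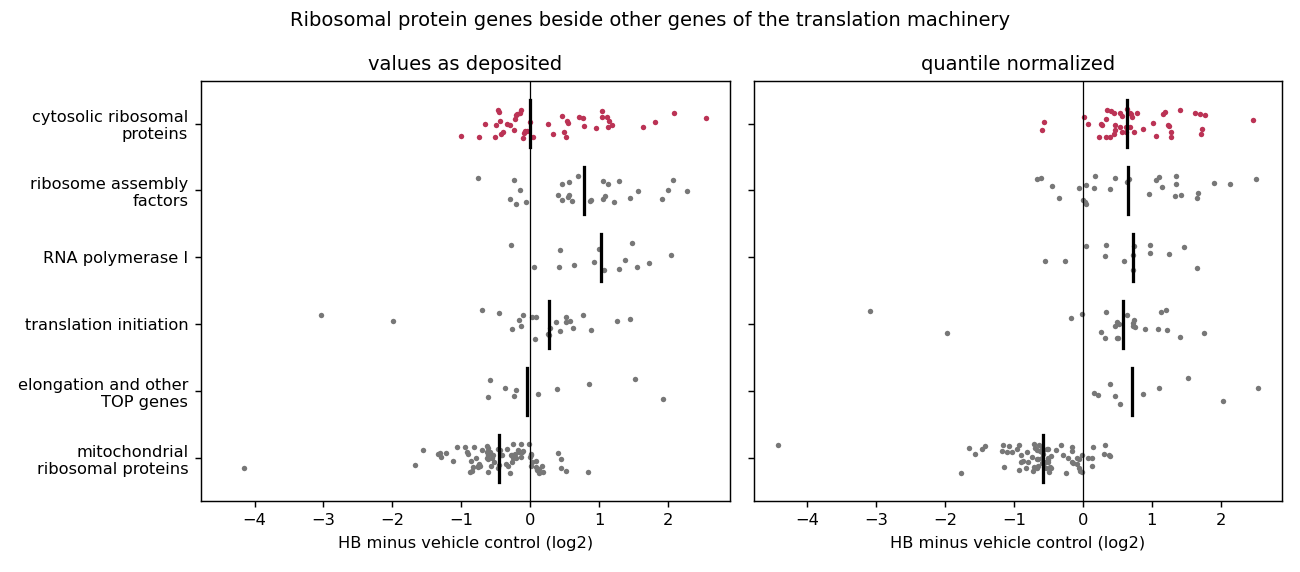
Log2 difference between HB and vehicle control liver for each tested gene of 6 lists (rows), with values as deposited (left) and quantile normalized (right); points are genes and black bars list medians. The median of the cytosolic ribosomal proteins moved from -0.01 to 0.63 with the scaling, while those of the assembly factors (0.78 and 0.65) and the mitochondrial ribosomal proteins (-0.45 and -0.58) kept their sign.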

How the data were processed

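Biotin-labelled cDNA amplified from 10 ng of RNA per sample was hybridised to whole-genome arrays, per the labels' protocols. The deposited intensity values were made by the authors with MAS5 (version not stated), per the submitters' processing notes, and each array's 2% trimmed mean was 500. Of 45101 probe sets, 34945 had 1 gene, 932 several, 9160 none, with 64 controls. The scale was log2(intensity + 16), and probe sets whose 6th highest value did not exceed the 40th percentile (66.3) were left out. HCC 3 and 4 differed by a scaled median absolute deviation of log2 values over 6024 bright probe sets of 0.18, against 0.35 to 0.82 in the other within-group pairs. The 4 group means were fitted over 23 samples in limma 3.58.1 (R 4.3.3, variance trend), two-sided, with Benjamini-Hochberg adjustment over 14086 genes and a threshold of 0.05. The method was tested on simulated data. Members, lists and the merging of HCC 3 and 4 were chosen with earlier results of these data known. Alternatives for pseudocount, scaling, filter, probe set, variance model, weights and samples are given at the end, and analyses by probe set, by level and with controls raised to the filter value were added after seeing the data. Genes named were the 5 called members with the largest difference in each direction of each comparison, those with separate groups first, the paralogs, Rpl11, Rps6, the brightest and dimmest members and up to 4 genes of each companion list by adjusted p. The names of the remaining called members and the HCC companion calls complete the counts. Rps3a1, Rps19bp1, Rpl37 and Rps4l, which was in no tested pair, were described outside this rule. They were not followed singly in the fits that left out 1 replicate or in the check for arrays far from their group. The plots used matplotlib 3.10.9 (Python 3.11.15).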

Additional observations from a re-analysis of the deposited data

Results flagged for a closer look

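In 5 of 100 groups checked, 1 array lay far from the rest of its group for a named member, and chance flags about 1 in 20 such groups. Rpl11 was at 11320 in HB 1, against 12970 to 13750 in the other HB arrays. Rpl7l1 was at 368.3 in BDCA_Normal 1, against 767.9 to 1009. Rps10 was at 13350 in Vehicle_Normal 5, against 16450 to 17750. Rps18 was at 20910 in HB 4, against 11540 to 14050 in the other HB arrays. Rps25 was at 727.4 in HCC 2, against 1560 to 2126.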

How the results depend on the processing

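Counts of called members moved with the scaling. They were 28 in HB against Vehicle_Normal, 13 in HB against BDCA_Normal, 12 in HB against HCC, 5 in HCC against Vehicle_Normal and 0 in the other 2 comparisons. After quantile normalization the counts were 35 in HB against BDCA_Normal, 26 in HB against HCC and 10 in HCC against Vehicle_Normal, and the medians of the members in HB were 0.6339 against Vehicle_Normal, 0.5229 against BDCA_Normal and 0.3763 against HCC. After median centring the counts were 27, 29 and 1 and the medians -0.6319, -0.5564 and -0.7223. With the mean of all kept probe sets of a gene the medians were 0.5382, 0.3512 and 0.09397, and with the brightest probe set that had no _x_ or _s_ suffix 0.5123, 0.2836 and 0.01805. Quantile normalization with those probe sets, an alternative chosen after seeing the data, gave counts of 31, 26 and 9, medians in HB of 0.8843, 0.642 and 0.5076, and medians against Vehicle_Normal of 0.3908 in HCC and 0.223 in BDCA_Normal. Without the arrays with Xist signal the counts were 11 in HB against Vehicle_Normal, 8 in HB against BDCA_Normal and 0 in HCC against Vehicle_Normal. The last count was 9 with array weights, 10 with 24 separate arrays and 3 with no variance trend. HCC against BDCA_Normal gave 1 with array weights, 1 with 24 separate arrays and 1 with the filter at the 60th percentile. Of the paralog tests, 5 passed with a pseudocount of 64, 5 with the filter at the 60th percentile (of 18) and 2 with the mean of probe sets. The causes were not tested.

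Leaving out each replicate in turn gave counts from 23 to 29 in HB against Vehicle_Normal, 8 to 17 in HB against BDCA_Normal, 7 to 18 in HB against HCC, 2 to 8 in HCC against Vehicle_Normal, 0 to 1 in HCC against BDCA_Normal and 0 to 0 in BDCA_Normal against Vehicle_Normal. The medians ranged from -0.03632 to 0.0145, -0.05783 to 0.02965, -0.2482 to -0.1018, 0.1484 to 0.2608, 0.0655 to 0.212 and 0.01588 to 0.1046 in the same order, and 0 to 4 paralog tests passed.

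Direction reversed for 11 named members. Against Vehicle_Normal in HB, quantile normalization gave 0.4002 for Rpl38, 0.2685 for Rps18, 0.02092 for Rps2, 0.3444 for Rps24, 0.2323 for Rps29 and 0.3346 for Rps9, and median centring gave -0.08384 for Rpl19 and -0.1681 for Rps7. Against BDCA_Normal in HB, quantile normalization gave 0.2173 for Rpl38, 0.122 for Rps2, 0.2946 for Rps24 and 0.1595 for Rps29, and median centring -0.2402 for Rps7. Against HCC, quantile normalization gave 0.145 for Rpl37a, 0.1756 for Rps10, 0.05612 for Rps18 and 0.1871 for Rps24, and median centring -0.1714 for Rpl7. The mean of probe sets gave 0.1024 for Rps10 against HCC, and against Vehicle_Normal 0.2531 for Rps18, 0.5656 for Rps24 and 0.6052 for Rps9, with 0.4903 and 0.3954 for Rps24 against BDCA_Normal and HCC. Probe sets with no _x_ or _s_ suffix gave 2.673, 2.109 and 2.574 for Rps24 against Vehicle_Normal, BDCA_Normal and HCC, and 1.17 for Rps9 against Vehicle_Normal. The same with quantile normalization gave 2.42, 1.936 and 2.48 for Rps24, 0.5753 for Rps9 and 0.4672 for Rps18 against Vehicle_Normal, and 0.4768 for Rpl37a, 0.2203 for Rps10 and 0.2204 for Rps18 against HCC.

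Of 33 pairs of samples with the same replicate number, 1 had a correlation of deviations over 0.1, that of HCC 1 with BDCA_Normal 1, at 0.496. The median over the pairs was -0.007. Replicate numbers were therefore not used to pair the samples in the main fit, and a pairing in another order was not tested. With the replicate block the counts were 27 in HB against Vehicle_Normal, 11 in HB against BDCA_Normal, 11 in HB against HCC and 5 in HCC against Vehicle_Normal. Of 48 calls of named members, 8 lost significance under the block and 0 changed sign. Signal at the low end limits Rpl37, Rpl39l, Rps27 and Rps4l, and the number of arrays limits all values.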
